A study of Danio rerio with 73 samples.

Results

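The testes of 18 zebrafish were compared: 8 from fish held at 36 °C and 10 from fish held at 28 °C during gonadal development, out of 73 gonads in the series. They were the libraries whose titles begin with the prefix 204 and whose labels give the tissue as testis and the treatment as HT or LT, which by the stated design means 36 °C or 28 °C. All fish were of the AB laboratory strain, carried no labelled allele, and were 90 days old when the testis was taken, so that the gonads were mature and the heat lay in early life. The labels define neither the prefix nor a tank, family or collection day, and the thermal treatment refers to an earlier published study. The p-values below treat these fish as independent, although they may share tanks or parents.

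Common laboratory strains of zebrafish have no simple sex chromosome system, and high water temperature while the gonad forms shifts sex ratios towards males. Methylation of cytosine in CpG dinucleotides is copied at each cell division by a maintenance methyltransferase, so a state set early can persist in the adult. Methylated promoters are usually silent, while CpG-dense promoters of active genes are usually free of methylation. The testis is a mixture of germ cells at every stage of spermatogenesis with Sertoli, Leydig and other somatic cells. A level measured in whole tissue averages over all of them, and a change in the mixture cannot be told apart from a change within 1 cell type.

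Methylation was read by multiplex bisulfite sequencing, in which unmethylated cytosines are converted and a panel of promoter fragments is amplified and sequenced together. The level of a CpG in a fish is the percent of methylated among all reads there, with at least 10 reads, and the fish is the replicate. In all, 323 CpGs fell into 20 amplicons, each level of which is the mean over its CpGs. Amplicons are named here by chromosome, with a letter in order of position where a chromosome holds several. The files carry no gene names and annotation of their build, GRCz10, was not used here, so positions alone are given. The lists of testis and ovary pathway, stress, chromatin and germ cell genes could accordingly not be counted, and the tissue label could not be checked against expressed markers.

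Total calls ranged from 3681330 to 12565602 per fish at 36 °C and from 1416665 to 8521577 at 28 °C, a difference with p = 0.0622 in a two-sided exact permutation test. Median depth per CpG over the 18 fish was at least 2187 reads in 16 amplicons, 404 reads in 5a and 292 reads in 25. It was only 16.5 reads in the amplicon on the unplaced scaffold Un_KN150211v1, called Un below, and 15 reads in 22. The 28 °C fish 7 had a level at 9 of the 20 amplicons, and each of the other fish had one at 17 to 20.

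Testes of fish reared at 36 °C were more methylated than those reared at 28 °C at most amplicons of the panel. Of 19 amplicons tested, 12 were higher at 36 °C (63.2%) and 1 was lower (5.26%), so 13 changed (68.4%), with a two-sided exact permutation test and a threshold of 0.05 on the Benjamini-Hochberg adjusted p. Among single CpGs, 94 of 318 were higher (29.6%) and 6 were lower (1.89%), which makes 100 in all (31.4%). The calls divide by the mean level of the amplicon over the 18 fish. That mean includes both groups, so a large difference itself tends to place an amplicon in the intermediate class. Of 8 amplicons below a mean of 5%, 2 were higher and none was lower. The intermediate class held 8 tested amplicons, of which 7 were higher and 1 was lower. All 3 amplicons above 80% were higher. The panel value of a fish is its mean deviation from the amplicon means, over the tested amplicons where it had a level. The sets of amplicons therefore differ between fish: 28 °C fish 7 had a level at 9, and 36 °C fish 1 and 17 had none at Un. The panel value was 6.45 ± 6.74 points at 36 °C (SD, n = 8) and -5.27 ± 2.22 points at 28 °C (SD, n = 10). The difference was 11.7 points with a standard error of 2.48 (exact permutation p = 0.00048). At a minimum of 30 reads it was 9.59 points (exact permutation p = 0.000754).

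**Figure D1:**
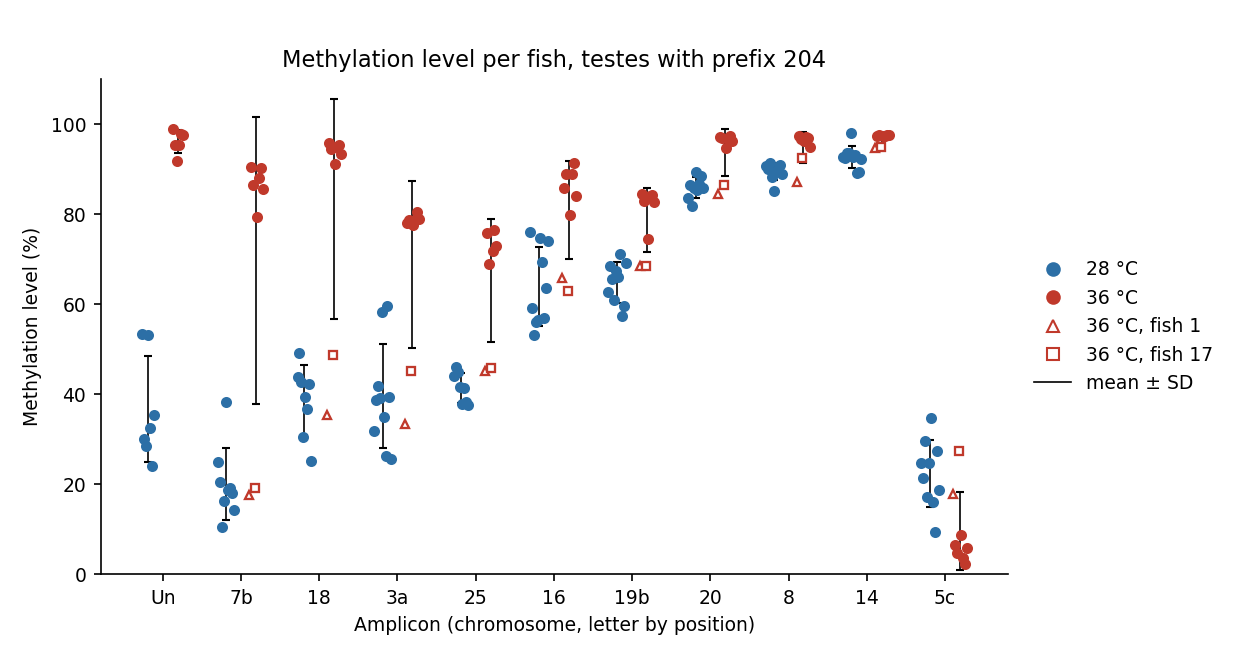
Methylation level in percent of each fish (points) at the 11 changed amplicons with intermediate or high levels, at 28 °C and 36 °C; bars give mean ± SD. At each amplicon except 14, 6 of the 36 °C fish (or all with a level in Un and the 5 in 25) lie apart from the 28 °C fish, while fish 1 (open triangle) and fish 17 (open square) lie among the 28 °C fish, apart from fish 17 at amplicon 8.

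The largest difference lay on the unplaced scaffold, at Un:6205-6328 (5 CpGs, plus strand). At 28 °C the level ran from 24.0% through a median of 32.6% to 53.3%, and at 36 °C from 91.7% through 96.6% to 99.0%. The groups did not overlap: almost every read was methylated at 36 °C, about 1 in 3 at 28 °C. The means were 96.2 ± 2.59% (SD, n = 6) and 36.7 ± 11.8% (SD, n = 7), a difference of 59.5 points (SE 4.58, exact permutation test, adjusted p = 0.00391). The depth is low here. In 28 °C fish 14, for instance, 48 of 90 reads were methylated, with a 95% Wilson interval of 43.1 to 63.3% that covers counting error only. Fish 1 and 17 at 36 °C, which stood apart elsewhere, had no level at this amplicon, so its first rank compares unlike sets of fish. Without that pair the difference at amplicon 7b was 66.7 points.

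Amplicon 7b (chr7:34854540-34854908, 9 CpGs, minus strand) showed the widest change among deeply read amplicons. Levels at 28 °C were 10.5% at the lowest, 18.7% at the median and 38.3% at the highest, and at 36 °C they were 17.7%, 86.1% and 90.6%. The 36 °C values fell into a high set of 6 fish between 79.5 and 90.6% and a low pair, fish 1 at 17.7% and fish 17 at 19.1%. Mean levels were 69.7 ± 31.8% (SD, n = 8) and 20.1 ± 7.94% (SD, n = 9), 49.6 points apart (SE 11.6, exact permutation test, adjusted p = 0.0046). All 9 CpGs rose, by 46.5 points at position 34854770 to 53.9 points at position 34854855, so the difference was nearly even along the fragment. In a permutation test on ranks neither of these CpGs passed, with exact adjusted p-values of 0.0984 and 0.0686.

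Amplicon 18 (chr18:39655137-39655521, 15 CpGs, minus strand) had the same shape. Its level spanned 25.1 to 49.1% at 28 °C with a median of 40.8%, and 35.5 to 95.9% at 36 °C with a median of 94.0%. Fish 1 at 35.5% and fish 17 at 48.7% lay inside the 28 °C range, and the other 6 lay above 91%. The difference was 42.4 points (SE 9.06; 81.2 ± 24.4% against 38.7 ± 7.75%, SD, n = 8 and 8; exact permutation test, adjusted p = 0.00472). Every one of the 15 CpGs rose, from 35.5 points at position 39655215 to 47.0 points at position 39655404.

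Amplicon 3a (chr3:17897376-17897597, 6 CpGs, minus strand) rose from 39.5 ± 11.6% (SD, n = 10) to 68.8 ± 18.6% (SD, n = 8). The 28 °C fish ranged from 25.7 to 59.5% around a median of 38.9%, and the 36 °C fish from 33.3 to 80.4% around 78.3%. Again 6 fish at 36 °C were close together and above all 28 °C fish, with fish 1 at 33.3% and fish 17 at 45.2%. The difference of 29.3 points (SE 7.51) had an adjusted p of 0.0046 in the exact permutation test, and 5 of 6 CpGs passed it. The largest CpG difference was 37.1 points at position 17897439, and the smallest was 12.6 points at position 17897380, which did not pass.

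Amplicon 25 (chr25:22224443-22224607, 8 CpGs, plus strand) was at 41.4 ± 3.32% (SD, n = 8) at 28 °C and at 65.3 ± 13.8% (SD, n = 7) at 36 °C. All values at 28 °C lay between 37.7 and 46.0%, the tightest group among the intermediate amplicons. At 36 °C the lowest was 45.2%, the median 71.8% and the highest 76.5%, with fish 1 at 45.2% and fish 17 at 45.7% the only ones below 68%. The difference was 23.8 points (SE 5.33, exact permutation test, adjusted p = 0.00391). All 8 CpGs rose, but unevenly, by 12.5 points at position 22224550 and by 33.9 points at position 22224496.

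Amplicon 16 (chr16:54645605-54645858, 19 CpGs, minus strand) rose by 17.02 points (SE 4.75, exact permutation test, adjusted p = 0.00543), from 64.0 ± 8.79% (SD, n = 10) to 81.0 ± 10.9% (SD, n = 8). The 28 °C fish spanned 53.1 to 76.0% and the 36 °C fish 62.9 to 91.5%, and 6 of 8 at 36 °C were above every 28 °C fish. Within the fragment the change depended on position. At 28 °C the CpG level was 93.0% at position 54645614 near the low-coordinate end and 30.6% at position 54645858 at the other end. At 36 °C these CpGs stood at 93.7% and 72.6%, which gives the smallest and the largest difference of the fragment, 0.641 and 42.0 points. Between them the difference did not grow steadily: it was 18.7 points at position 54645651 and 9.57 points at position 54645721. All 19 CpGs had a positive difference and 14 of them passed the test.

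Amplicon 19b (chr19:27434975-27435361, 7 CpGs, plus strand) was 64.9 ± 4.49% at 28 °C (SD, n = 10) and 78.7 ± 7.11% at 36 °C (SD, n = 8). The ranges, 57.5 to 71.1% and 68.4 to 84.4%, overlapped only through fish 1 and 17, both at 68.4 to 68.5%. The difference was 13.8 points (SE 2.89, exact permutation test, adjusted p = 0.00391). All 7 CpGs were higher at 36 °C and 2 of them passed the test, with differences of 19.99 points at position 27434975 and 7.05 points at position 27435325. The latter failed the test in 6 of the 18 rounds that each dropped a different fish.

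**Figure D2:**
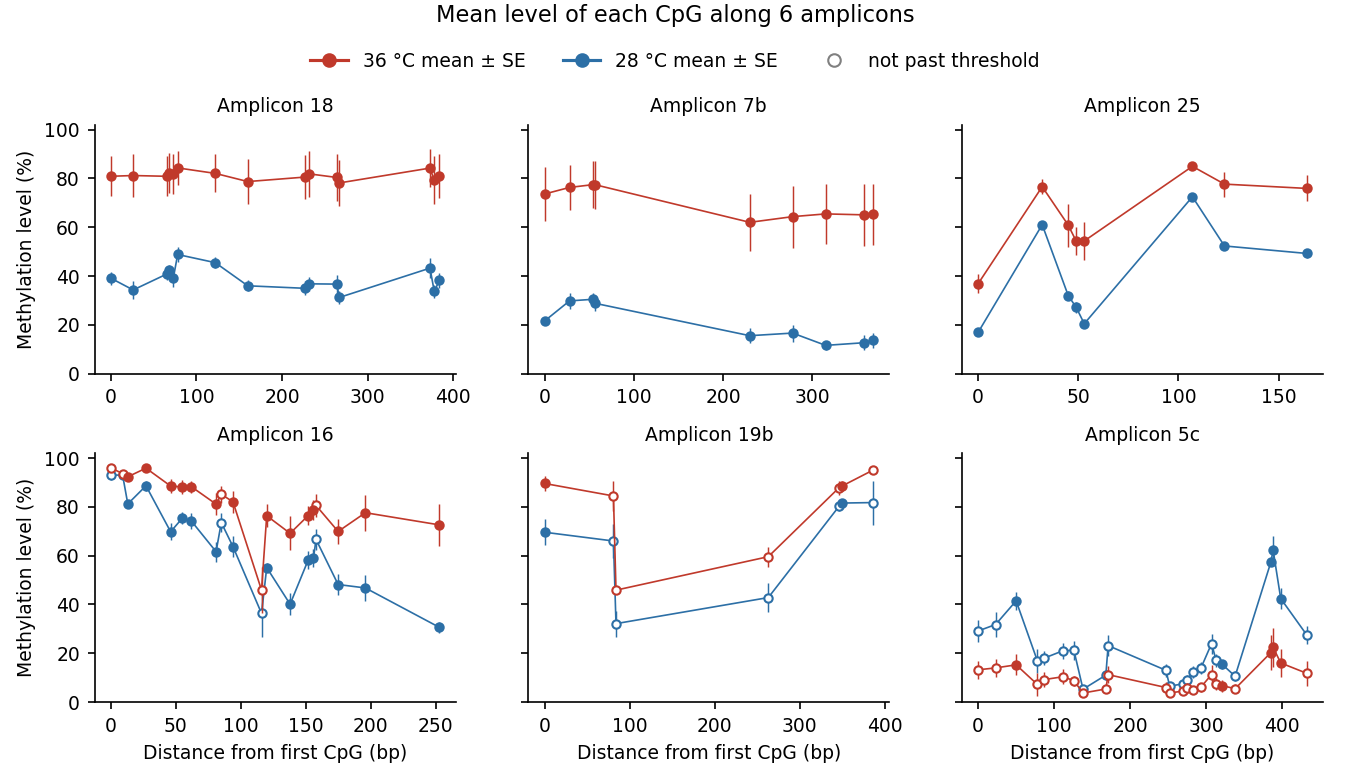
Mean methylation level in percent (± SE over fish) of each CpG against distance in bp from the first CpG of the amplicon, at 28 °C and 36 °C, for amplicons 18, 7b, 25, 16, 19b and 5c; open points did not pass the exact permutation test. In 18 and 7b the curves run parallel, whereas in 16 they part towards one end and in 5c the 36 °C curve stays low where the 28 °C curve peaks.

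The 3 highly methylated amplicons moved closer to full methylation. Amplicon 20 (chr20:1252974-1253280, 10 CpGs, plus strand) rose from 86.0 ± 2.26% (SD, n = 9) to 93.7 ± 5.22% (SD, n = 8), by 7.79 points (SE 1.99, exact permutation test, adjusted p = 0.0049). Its 28 °C fish lay between 81.9 and 89.4% and its 36 °C fish between 84.4 and 97.3%, with fish 1 and 17 alone below 94%. The rise ranged from 2.53 points at position 1253280, which did not pass, to 16.8 points at position 1253053, and 5 of 10 CpGs passed. Amplicon 8 (chr8:29856084-29856417, 4 CpGs, plus strand) rose by 5.42 points (SE 1.38, exact permutation test, adjusted p = 0.0046), from 89.4 ± 1.86% (SD, n = 9) to 94.9 ± 3.50% (SD, n = 8). Here fish 17, at 92.6%, was above the 28 °C range of 85.2 to 91.3%, and fish 1, at 87.1%, was inside it. All 4 of its CpGs had a positive difference and 3 passed the test. The differences ran from 3.82 points at position 29856281 to 6.76 points at position 29856417. The call at the latter failed in 6 such rounds and with limma on percent levels, and its difference was 4.43 points without 28 °C fish 2.

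Amplicon 14 (chr14:23501841-23502150, 10 CpGs, minus strand) changed least among these, by 4.14 points (SE 0.892, exact permutation test, adjusted p = 0.00391), from 92.7 ± 2.45% (SD, n = 10) to 96.8 ± 1.25% (SD, n = 8). It is the single changed amplicon where all 36 °C fish lay inside the 28 °C range, because 28 °C fish 2 stood at 98.1%, above the other 9 at 89.3 to 93.7%. Only 2 of its 10 CpGs passed the test. Position 23502026 rose from 77.9 to 94.2%, by 16.3 points, and position 23502150 rose from 81.2 to 95.5%. Position 23501850 was at 97.7 and 97.4%, a difference of -0.277 points.

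Amplicon 5c (chr5:44344567-44344999, 24 CpGs, plus strand) was the only one that was less methylated at 36 °C. Levels at 28 °C were 9.35% at the lowest, 23.0% at the median and 34.7% at the highest, and at 36 °C they were 2.18%, 6.16% and 27.3%. The 6 lowest fish at 36 °C were below every 28 °C fish, while fish 1 at 17.7% and fish 17 at 27.3% lay within the 28 °C range. The mean fell from 22.4 ± 7.37% (SD, n = 10) to 9.59 ± 8.61% (SD, n = 8), a difference of -12.8 points (SE 3.83, exact permutation test, adjusted p = 0.00738). All 24 CpGs had a negative difference and 5 passed the test. The 4 CpGs with the highest levels at 28 °C had the largest falls. Position 44344955 fell from 62.3 to 22.4%, by 39.9 points, while position 44344705, at 5.25 and 3.69%, differed by -1.56 points and did not pass.

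The 5 largest CpG differences inside amplicons were all on the unplaced scaffold. Fish 1 and 17 at 36 °C had no level there, so this rank too compares unlike sets of fish. Position 6205 stood at 95.8 ± 5.65% (SD, n = 6) against 32.3 ± 16.2% (SD, n = 7), a rise of 63.5 points. The rises at positions 6212, 6279, 6210 and 6328 were 59.8, 59.0, 58.9 and 56.1 points. A further kept CpG of the same scaffold, at position 5948 and outside any amplicon, stood at 94.7 ± 7.07% (SD, n = 6) against 25.5 ± 15.8% (SD, n = 7), a difference of 69.2 points that exceeds those inside amplicons.

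Among the amplicons with low levels, the changes were small in points and rested partly on a single fish. Amplicon 5b (chr5:34961306-34961660, 34 CpGs, plus strand) stood at 0.238 to 0.566% at 28 °C with a median of 0.364%. At 36 °C it stood at 0.380 to 0.987% in 7 fish and at 10.2% in fish 11, with a median of 0.668%. Its difference of 1.46 points (SE 1.199, exact permutation test, adjusted p = 0.00391) became 0.259 points without fish 11, and the amplicon still passed the test. It did not pass with limma on percent levels or with a quasi-binomial model. All 34 CpGs had a positive difference, from 1.17 points at position 34961320, which did not pass, to 1.84 points at position 34961637, and 11 passed. Without fish 11 these differences were 0.127 and 0.598 points. The latter CpG still passed then, but not with limma on percent levels or the quasi-binomial model.

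Amplicon 3b (chr3:54352466-54352868, 26 CpGs, minus strand) rose from 0.370 ± 0.0828% (SD, n = 9) to 0.699 ± 0.315% (SD, n = 6), by 0.330 points (SE 0.132, exact permutation test, adjusted p = 0.0046). The 28 °C fish ran from 0.241 to 0.512% and the 36 °C fish from 0.327 to 1.28%, so the ranges overlapped through the lowest 36 °C fish. Without fish 11 the difference was 0.214 points, and limma on percent levels did not call it. Here 3 of 26 CpGs passed, between a difference of -0.212 points at position 54352678, which did not pass, and 1.25 points at position 54352768. The last was 0.690 points without 36 °C fish 19 and still passed, but it did not pass with limma on percent levels.

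The other 6 low amplicons did not pass the test in either direction. Differences were 0.165 points at 19a (chr19:1356464-1356767), 0.239 points at 1 (chr1:6886521-6886862), -0.503 points at 5d (chr5:44400346-44400733), -0.257 points at 15 (chr15:7060346-7060685), -0.123 points at 7a (chr7:22538693-22539035) and -0.0553 points at 5a (chr5:23697173-23697500). Their adjusted p-values in the exact permutation test ran from 0.0878 at 19a to 0.913 at 7a. Single 28 °C fish decided 2 of these calls: amplicon 1 passed, at 0.542 points, once fish 2 was left out, and 19a passed, at 0.217 points, once fish 3 was. Some of their CpGs passed all the same: 4 of 31 in 7a, 3 of 18 in 19a, 1 of 20 in 1 and 1 of 26 in 5a were higher. In 5d, 3 of 18 were higher and 1 was lower, and in 15 none of 26 passed. The share in each of the 6 was below the 31.4% of all 318 CpGs. The lower CpG of 5d, at position 44400346, differed by -6.99 points and is the sole CpG outside 5c that passed the test with a negative difference. The 4 in 7a rose by at most 0.583 points. The level of 5d depended on coverage of its CpG at position 44400733, which had a level in only 9 fish. Amplicon 5d stood at 3.95 to 6.57% in those fish and at 1.86 to 2.61% in the others. Its difference and spread therefore mix methylation with missing values.

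**Figure D3:**
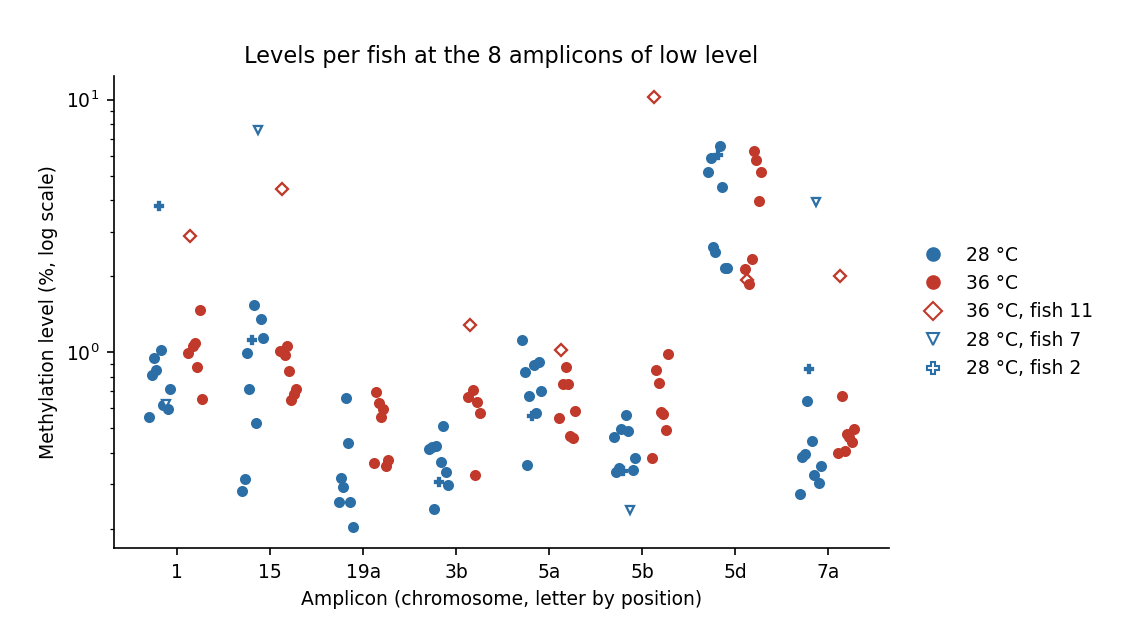
Methylation level in percent on a log axis of each fish at the 8 amplicons below 5%, at 28 °C and 36 °C; the diamond marks 36 °C fish 11, the triangle 28 °C fish 7 and the plus 28 °C fish 2. Fish 11 is the highest 36 °C fish at 6 of the 7 low amplicons where it has a level, reaching 10.2% at 5b.

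Fish 11 at 36 °C was the highest of its group at 6 of 7 low amplicons with a level. It reached 10.2% at 5b, 4.42% at 15, 2.88% at 1, 2.003% at 7a, 1.28% at 3b and 1.03% at 5a. The mean over low amplicons was 1.40 ± 0.834% at 36 °C (SD, n = 8) and 1.29 ± 0.725% at 28 °C (SD, n = 10). The difference had p = 0.729 in the exact permutation test. Each fish was averaged over the low amplicons where it had a level, 4 in 28 °C fish 7 and 7 or 8 in the others. The sets therefore differ between fish, and the level of 5d among them depends on coverage of its CpG at position 44400733. The 28 °C fish 7, which had a level at 4 low amplicons, was the highest of its group at 2 of them, with 7.56% at 15 and 3.94% at 7a. The completeness of bisulfite conversion in these fish was not measured here.

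The 36 °C testes did not form a single cluster. Fish 1 was within the 28 °C range at 10 of 10 changed amplicons outside the low class where it had a level, and fish 17 at 9 of 10. Both counts include amplicon 14, where the range reached 98.1% through 28 °C fish 2 alone. There fish 1 at 94.8% and fish 17 at 94.9% were above the other 28 °C fish. Each of the other 6 fish was within the 28 °C range at 1, amplicon 14. Those of the 6 with a level lay outside it together at 10 of 11, and at 25 fish 2 had no level. That is 10 of the 19 tested amplicons, since at each low amplicon at least 1 of them lay within the range. The 11 amplicons were called by their difference and the 6 fish were left once the pair was set apart by level. Both choices favour such a gap. Averaged over the changed amplicons, fish 1 was 3.45 points and fish 17 was 3.27 points from the 28 °C median. From the median of the other 36 °C fish they were 27.6 and 25.4 points away. Those other 6 fish were 1.41 to 4.36 points from their own median and 27.3 to 32.5 points from that of the 28 °C fish. The panel values, each over the amplicons where that fish had a level, tell the same. They were 8.66 to 11.9 points in the 6 fish, -5.42 in fish 1, -3.22 in fish 17, and -8.08 to -1.54 in the 28 °C fish. No 36 °C fish lay between the sets.

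The differences at the changed amplicons are therefore also given without fish 1 and 17, as a description, since the pair was picked by its levels. The difference then rose to 66.7 points at 7b, 55.5 at 18, 39.2 at 3a, 31.8 at 25, 22.6 at 16, 17.3 at 19b, 10.6 at 20, 7.09 at 8 and 4.81 at 14. At 5c it became -17.1 points, with the 36 °C mean at 5.28 ± 2.30% (SD, n = 6). It was 1.88 points at 5b and 0.337 points at 3b, and at Un, where the pair has no level, it is the value above. Past the threshold of the exact permutation test were then 13 of 19 amplicons and 131 of 316 CpGs. Of these CpGs, 111 were higher and 20 lower. Leaving out fish because they lay with the 28 °C fish favours such calls, so these counts are no support for a difference. The panel difference was 15.3 points.

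**Figure D4:**
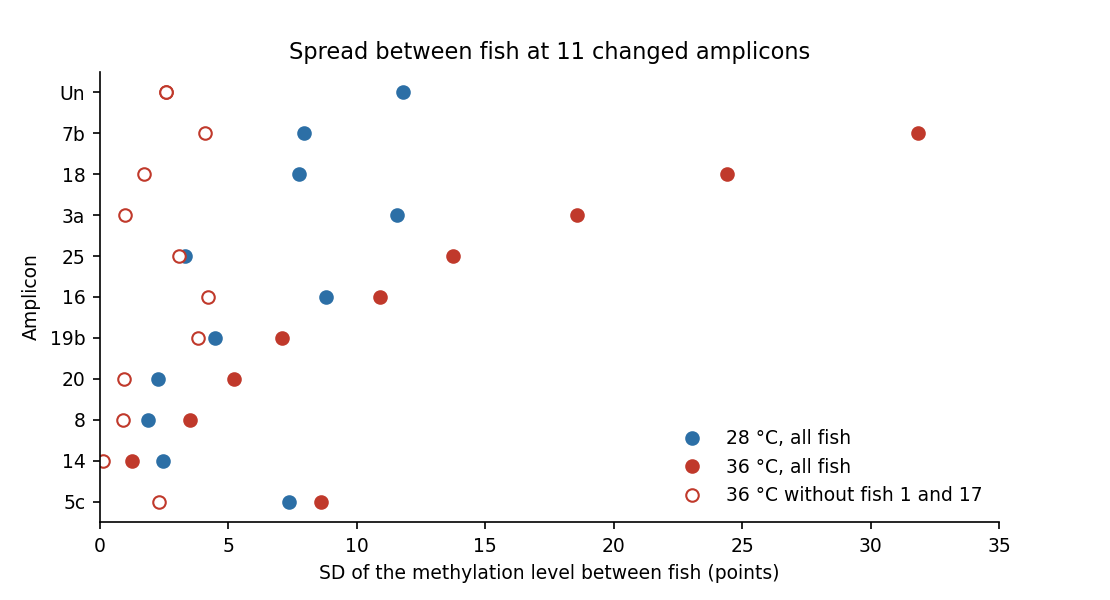
SD of the methylation level between fish, in percentage points, at the 11 changed amplicons outside the low class (rows), at 28 °C (blue), at 36 °C (red) and at 36 °C without fish 1 and 17 (open red). With all fish the 36 °C point lies right of the 28 °C point in 9 of 11 rows, and without the pair in 0; in Un, where the pair has no level, both 36 °C points coincide.

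The spread between fish was compared by the mean absolute deviation from the group median. No amplicon passed, 0 of 19 after Benjamini-Hochberg adjustment of exact permutation tests, and 1 had an unadjusted p below 0.05 (5b, p = 0.0053, adjusted p = 0.101). As a description, the SD was larger at 36 °C at 12 of 19 amplicons and at 9 of the 11 changed ones outside the low class. It was 31.8 against 7.94 points at 7b and 24.4 against 7.75 points at 18. Without fish 1 and 17 it was larger at 36 °C at 3 of 19 and at 0 of those 11. The SD at 36 °C then shrank to 4.08 points at 7b, 1.70 at 18 and 0.985 at 3a, where the 28 °C fish had 11.6. At 14 it was 0.107 points against 2.45. The choice of the pair by level favours a smaller SD in the 6 fish that are left, so these values describe those fish and no more. The same exact permutation test without the pair called 0 of 19 amplicons, with 5 at an unadjusted p below 0.05. The choice of the pair bears on this test too, so nothing is drawn from it.

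A few CpGs split fish that otherwise agreed. They were picked after their values were seen, as the 7 of 323 CpGs whose SD over the 36 °C fish without 1 and 17 was above 10 points and above 2 times the median of their amplicon. At 3a, position 17897380 was at 43.8 to 47.5% in fish 18, 19 and 2 and at 15.2 to 18.4% in fish 11, 13 and 8. At the other end of the same fragment, position 17897597 divided the same fish the opposite way, 50.3 to 51.7% against 79.8 to 80.6%. The amplicon mean of these fish therefore hid 2 patterns of CpG levels. At 16, position 54645721 ranged from 22.5 to 90.8% in these 6 fish and from 0.154 to 81.1% at 28 °C, so the ranges at the 2 temperatures overlapped widely. At 19b, position 27435056 was 47.8% in fish 18 and 93.8 to 96.3% in the other 5. Positions 22224492 in 25, 20736780 in 22 and 44400733 in 5d completed the set. The last had 10 to 31 reads in the 9 fish with a level, stood at 57.9 to 83.3% there, and was missing in the rest. Without it 5d was at 0.956 to 2.84% in the fish with a level, all but 28 °C fish 7.

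Amplicon 22 (chr22:20736688-20736788, 6 CpGs, minus strand) had a level in only 4 fish at 36 °C and was not tested. Fish 1 stood at 4.45%, fish 17 at 6.41%, fish 18 at 43.6% and fish 8 at 55.9%, and the 7 fish at 28 °C ran from 3.80 to 25.1%. The pair again lay with the 28 °C fish.

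The balance of reads across the panel also differed between the temperatures, a comparison added after the data were seen. Amplicon 5b took 41.1 to 72.2% of the calls of a fish at 36 °C, median 47.9%, and 1.91 to 38.8% at 28 °C, median 7.64% (exact permutation test, adjusted p = 0.000914 over 20 amplicons). Amplicon 14 took 6.87 to 20.2% against 0.360 to 16.7% (exact permutation test, adjusted p = 0.0096). The shares of 19b, 3a, 5c and 7b were lower at 36 °C, which makes 6 of 20 amplicons past the threshold. The shares of a fish add up to a fixed total, so a larger share of 5b by itself lowers the others. These calls are therefore not separate changes. Fish 1 and 17 had 46.5% and 64.2% of their calls on 5b, as the other 36 °C fish did, although their methylation was at the level of the 28 °C fish. Among prefix 204 ovaries the median share of 5b was 15.4% at 28 °C and 53.2% at 36 °C, while among prefix 128 testes it was 47.7% and 5.90%, the opposite order. The labels give no library or sequencing batch, so a batch and the temperature cannot be told apart, and the part of the read balance in the differences was not tested.

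**Figure D5:**
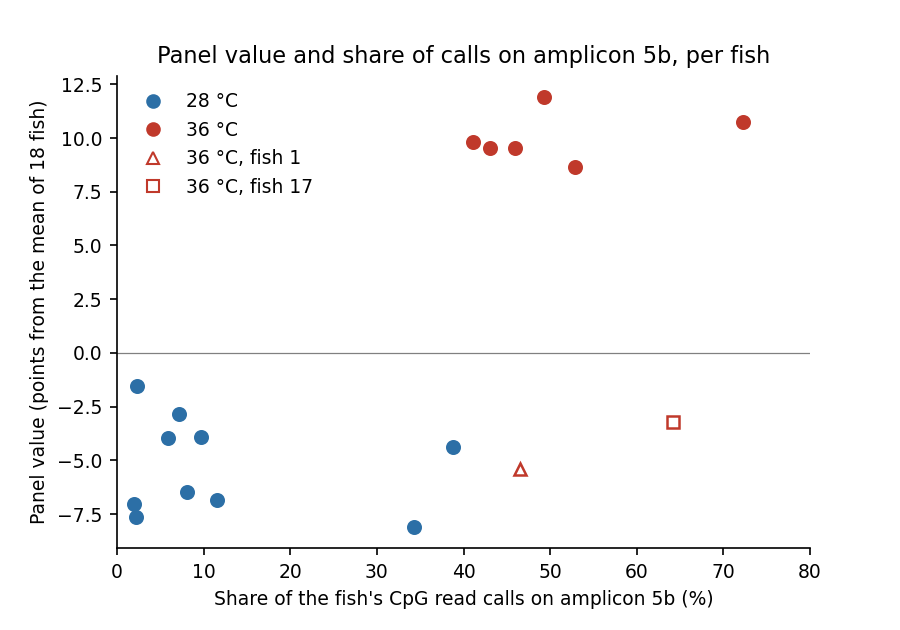
Panel value of each fish in percentage points against the percent of its calls on amplicon 5b, for 36 °C and 28 °C testes. All 8 fish at 36 °C lie at 41.1% or more of calls, and among them fish 1 and 17 alone lie at the panel values of the 28 °C fish.

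Set beside other gonads of the series, the 28 °C testes were close to ovaries of the same prefix at these amplicons. Of 100 values (fish by changed amplicon outside the low class) of 28 °C testes, 75 fell within the range of the prefix 204 ovaries, against 16 of 85 at 36 °C. Fish 1 and 17 held 15 of those 16. These amplicons were chosen by their difference between the temperatures, which favours a gap between the shares. Values from the same fish are also not independent. At the low amplicons the values within the ovary range ran from 3 of 7 (amplicon 1) to 7 of 7 (19a) at 36 °C. At 28 °C they ran from 6 of 10 (15) to 7 of 7 (19a). At 18 the ovaries ran from 23.7 to 45.1% at 28 °C (n = 9) and from 23.6 to 48.9% at 36 °C (n = 11). Testes titled with the prefix 128 ran from 40.4 to 96.6% at 28 °C (n = 13, median 95.7%) and from 92.9 to 97.0% at 36 °C (n = 12). At 7b the 28 °C ovaries stood at 15.1 to 31.3% (n = 9), and the prefix 128 testes at 31.5 to 93.6% at 28 °C (n = 12) and 82.9 to 93.5% at 36 °C (n = 11). The 6 concordant testes at 36 °C thus lay near the level of most prefix 128 testes, and the 28 °C testes and the pair lay near the ovaries, without a test between these sets.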

How the data were processed

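Genomic DNA was bisulfite-converted, amplified as a multiplexed panel and read on an Illumina sequencer, as the labels' protocols say. Each fish has a table in which the authors give the count of methylated and unmethylated reads at each CpG. The deposited values are raw integers with no scaling. The tools named were Bismark 16.0, Bowtie2, Trim Galore 0.4.5 and FastQC 0.11.6, and the build GRCz10, per the submitters' processing notes. Removal of PCR duplicates is not given in the sources used here, and reads carry no molecular identifiers, so intervals cover counting error only. Coordinates are 1-based.

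CpGs with at least 10 reads in at least 50% of the 73 fish were kept, 324 of 25217. Neighbours no more than 200 bp from each other formed an amplicon, which needed 2 or more CpGs. An amplicon had a level in a fish where at least 50% of its CpGs did. Groups were compared by a two-sided permutation test over all splits of the fish with a level (43758 for 8 against 10), with at least 5 fish per side and Benjamini-Hochberg adjustment at 0.05, in Python 3.11.15 with numpy 2.4.6 and scipy 1.17.1. Alternative models used limma 3.58.1 and R 4.3.3. The test was tested on simulated data. Every amplicon with a level in 5 fish per side was named, and so were the 5 CpGs with the largest change and the CpGs of largest and smallest difference in each changed amplicon. Any other CpG was picked once its values were known. The members, lists and tests were chosen with earlier results of these data known. Matching of amplicons to promoter sequences was not done.

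Alternatives were minimums of 5, 30 and 100 reads, coverage in 80% of fish or in 50% of the 18 testes, joining up to 500 bp, pooled reads, ranks, limma on percent levels or on log2 ratios of counts, a quasi-binomial model, at least 3 fish per side, a replicate block, each fish left out, and fish 1 and 17 left out. Use of the same CpGs in every fish was added after seeing the data.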

Additional observations from a re-analysis of the deposited data

Results flagged for a closer look

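Among 44 sets of values (the 20 amplicons, the panel value and the total calls, each in 1 group of 4 to 10 fish), 9 held a fish whose gap to its nearest neighbour was too large a part of the whole range by Dixon's criterion. Chance gives about 1 in 20 where values are normally distributed and sets are independent. The sets here share fish and many lie near an end of the scale, so 9 of 44 cannot be weighed against that rate. At 36 °C, fish 11 was the highest at 5b with 10.2% (next 0.987%), at 15 with 4.42% (next 1.06%), at 1 with 2.88% (next 1.48%) and at 7a with 2.003% (next 0.675%). At 28 °C, fish 7 was the highest at 15 with 7.56% (next 1.54%) and at 7a with 3.94% (next 0.857%). The 28 °C fish 2 was the highest at 14 with 98.1% (next 93.7%) and at 1 with 3.78% (next 1.02%). At amplicon 8 the 36 °C fish 1 was the lowest, with 87.1% against 92.6% in the next. The criterion looks for 1 fish apart from the rest, so it did not mark fish 1 and 17 together at the other changed amplicons.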

How the results depend on the processing

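Over the alternatives other than the replicate block, the count of changed amplicons ran from 11 to 14, and the number tested changed too. It was 11 of 17 at 80% coverage, 11 of 19 with limma on percent levels and 14 of 20 at a minimum of 5 reads. That of CpGs ran from 76 of 318 (limma on percent levels, 6 of them lower) to 135 of 318 (quasi-binomial model, 26 of them lower). The panel difference ran from 9.21 to 15.3 points, the highest without fish 1 and 17, which were picked by their levels. The spread test called 0 throughout. Leaving out 1 fish at a time gave 13 to 14 amplicons, 85 to 118 CpGs and 10.98 to 13.4 points, and no amplicon past the threshold was lost. Fish numbers 2, 8 and 17 occur at both temperatures. The labels do not say whether equal numbers pair the fish, and 3 correlations cannot decide it. Correlations of amplicon deviations between fish of equal number were 0.33, -0.21 and -0.0085, and 1 of the 3 fish correlated best with its own number. A replicate block on these 3 pairs called 0 of 14 amplicons and 0 of 244 CpGs, and gave a panel difference of 10.7 points with an exact permutation p of 0.25, the smallest that 3 pairs allow. Differences that changed sign had not passed the test. Over the single fish left out, amplicon 1 ran from -0.0268 (without 36 °C fish 11) to 0.542 points (without 28 °C fish 2, where it passed the test), 15 from -0.704 to 0.410 and 7a from -0.314 to 0.227, the last 2 highest without 28 °C fish 7. Amplicon 1 came to -0.667 with the replicate block, and with limma on log2 count ratios 15 came to 0.0816 and 7a to 0.12. Amplicon 5d came to 0.356 at a minimum of 5 reads and 0.254 with the block. Its CpG at position 44400733 stood at 57.9 to 83.3% in the fish with at least 10 reads there. At the minimum of 5 reads it also counted in 36 °C fish 1, 11, 13 and 17, but at 28 °C only in fish 17. The CpG of 16 at 54645614 ran from -0.0305 (without 28 °C fish 17) to 1.77 over left-out fish, and came to -0.17 on log2 ratios and -0.426 with the block, and that of 5c at 44344705 to 0.40 on log2 ratios. The cause was not tested. Amplicon 19a passed in the quasi-binomial model and without 28 °C fish 3. No fish was below a minimum of 1000000 calls, so that alternative gave no value. Low depth limits Un and 22, and amplicon reads overstate the number of molecules.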
